A study of Rattus norvegicus with 12 samples.

Results

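Liver RNA from hypophysectomised male rats given 2 injections of growth hormone (GH) was compared with liver RNA from hypophysectomised males given none. The comparison consisted of 2 microarrays of the 12 in the study, chosen by their titles, and 28438 probes were tested on them. All rats were of the Fischer 344 strain and 12 weeks old, and both RNAs came from rats without a pituitary, so that the control animals lacked pituitary GH and the other pituitary hormones as well. The GH-treated RNA was 1 pool of 5 livers, from rats whose injections were 3 or 4 h apart. The hypophysectomised control RNA came from pools of 3 to 4 livers. On array 1 the treated RNA was labelled with Alexa 555 and the control RNA with Alexa 647, and on array 2 the dyes were exchanged. Values are log2 ratios of treated over control RNA, so that 1 is a doubling and -1 a halving. The same treated pool went on both arrays, so the p-values do not measure the spread between treated rats. They rest on the spread left in a fit to all 12 arrays, and not on the gap between these 2 arrays alone. The labels do not say which control pool went on which array. The GH dose, its source and the time from the second injection to death were not given in the sources used here. For reference, the study also compared hypophysectomised males given 1 GH injection with untreated hypophysectomised males. Those injected rats were killed 30, 60 or 90 min later (1 pool of 4 livers). The study further compared hypophysectomised with intact males, and intact males with intact females. The remaining arrays of the fit compared hypophysectomised females with intact females, and hypophysectomised males with hypophysectomised females.

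GH acts on hepatocytes through the GH receptor, a cytokine receptor without kinase activity of its own that carries the tyrosine kinase JAK2. JAK2 phosphorylates STAT proteins, above all STAT5b, which then move to the nucleus and activate genes such as Igf1 and those of the SOCS family of feedback inhibitors. In rats the pituitary secretes GH in separated pulses in males and nearly continuously in females, and this difference sets the sex-dependent expression of many liver genes. Removal of the pituitary ends GH secretion, and injected GH gives a pulse whose early and later transcriptional effects can be followed.

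Between 68.4% and 71.1% of probes were well above background in each RNA on the 2 arrays (58.4% to 71.1% over all 12), and no spot was saturated. The 2 arrays correlated at r = 0.805 over 28424 probes, a description of agreement across probes, which are not independent. All 4 arrays with GH-treated RNA shared 1 scan identifier in the file headers, and the other arrays had 2 more. Each identifier was taken as 1 slide, which the labels do not state. Slide and GH treatment thus cannot be told apart in level, although each ratio was taken within an array. Probes for very abundant liver transcripts often gave different ratios on the 2 arrays, as for the fibrinogen genes described below. Both array values are given for many such genes, but not for all. The part of the dye in these gaps was not tested beyond the term for dye orientation in the fit.

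After 2 GH injections 8773 of 28438 probes differed from the untreated hypophysectomised livers at an adjusted p under 0.05 (limma, Benjamini-Hochberg), which is 30.8% of those tested. Of these, 4277 were higher and 4496 were lower, with a median over all probes of -0.01. Changes of at least 2-fold were found for 589 probes in the higher direction and for 306 in the lower. With each named gene represented by its brightest probe, 4416 of 11989 genes (36.8%) were called, 2183 higher (18.2%) and 2233 lower (18.6%). These shares are the background for the gene groups below, which were chosen with earlier results of these data known. Without array 1 the count of probes fell to 4183 and without array 2 to 4870. It was 14863 when only the 4 arrays with GH-treated RNA were fitted, and 75 when the arrays were centred on their medians in place of the intensity-dependent correction.

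**Figure D1:**
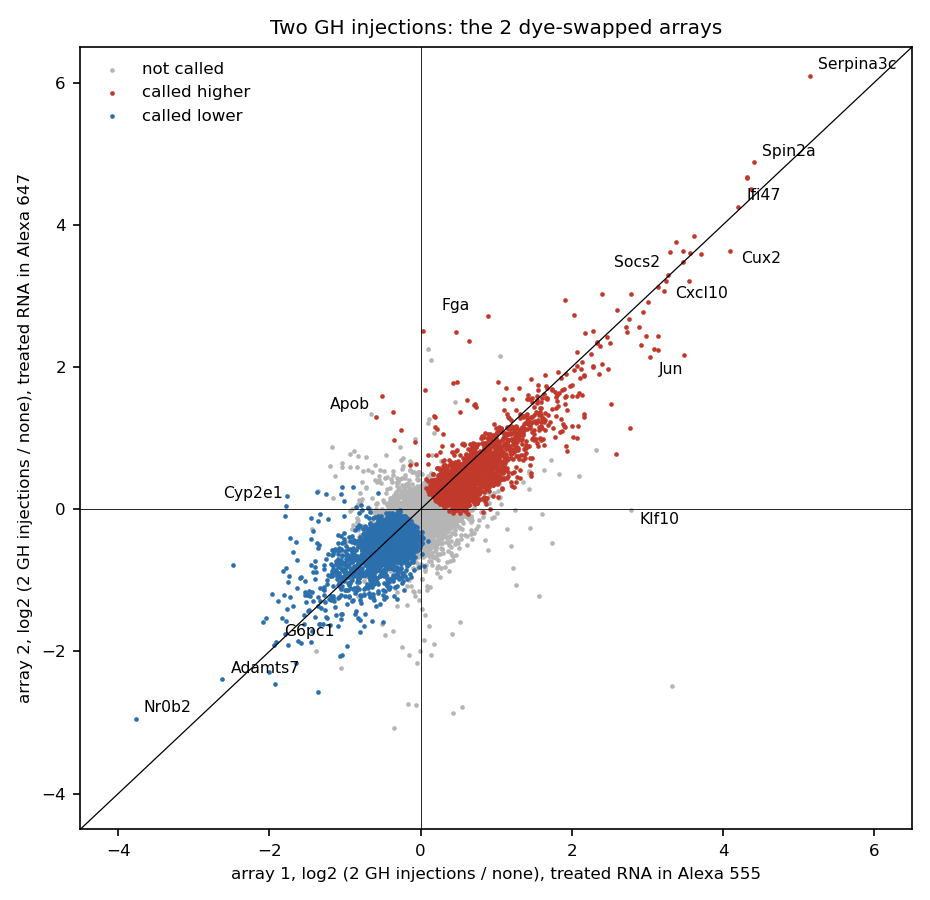
Log2 ratio of each named gene (brightest probe) on array 1 (x axis) against array 2 (y axis), 2 GH injections over none, with called genes in red (higher) and blue (lower), uncalled genes in grey and the line of equality in black. Serpina3c lies at 5.15 and 6.10 and Nr0b2 at -3.77 and -2.95, while Fga (0.89 and 2.72), Apob (-0.59 and 1.30) and Klf10 (2.78 and -0.01) lie far from the line.

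The largest increases were in secreted proteins that the liver makes under GH control. Serpina3c, a serine protease inhibitor of the serpin family, had ratios of 5.15 and 6.10 on arrays 1 and 2. Its fitted log2 ratio was 5.62 ± 0.32, or 49.3-fold (limma, adjusted p = 1.3e-05). Here and below, ± gives the SE from the fit to all 12 arrays, with n = 2 arrays for this comparison. Spin2a, another serine protease inhibitor, had 4.40 and 4.88 and a fitted 4.64 ± 0.49. Its less bright probes were also called higher, except the dimmest, which gave -0.17 ± 0.10 and was not called. Both genes were lower in hypophysectomised than in intact males, with log2 ratios of -6.99 for Serpina3c and -5.23 for Spin2a. Those ratios share the hypophysectomised condition with the ones given here, so the 2 are not independent. The major urinary proteins, small carriers of pheromones made by male rat liver, followed: Mup4l4 rose by 4.50 ± 0.48, Mup4l1 by 4.48 ± 0.39, Mup4l3 by 4.43 ± 0.42, Mup4 by 3.58 ± 0.49 and Mup5 by 3.45 ± 0.24. These genes are near-identical copies of each other, and their probes can hybridise to more than 1 of them, so that they count as uncertain as single genes. A single injection gave 5.45 for Serpina3c, 4.40 for Spin2a and 4.53 for Mup4l4, and none of the 3 differences between 2 and 1 injections was called.

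Transcriptional regulators and interferon-inducible genes made up most of the remaining largest increases. Ifi47, an interferon-inducible GTPase, had 4.19 and 4.25 on the 2 arrays, a fitted 4.22 ± 0.06 or 18.7-fold (adjusted p = 7.3e-08). Cux2, a homeobox repressor found in female rat liver, had 4.10 and 3.63 and a fitted 3.87 ± 0.13, although a second, dimmer probe for it gave 0.21 ± 0.09 and was not called. Gbp5, a guanylate-binding GTPase of the interferon response, had 3.62 and 3.84 with a fitted 3.73 ± 0.14. The brightest probes of these 3 genes thus stood high on both arrays. Onecut1 (HNF6), a liver transcription factor, rose by 3.64 ± 0.28, and Nampt, the rate-limiting enzyme of NAD salvage, by 3.56 ± 0.18. Gadd45g, a growth arrest and DNA damage inducible gene, rose by 3.55 ± 0.26, Cxcl9, a chemokine induced by interferon gamma, by 3.47 ± 0.14, and Atf3, a stress-inducible bZIP repressor, by 3.38 ± 0.19. The promoter of Ifi47 holds the sequence TTCNNNGAA, bound by STAT5 among other STATs, 2 times. It is printed below because Ifi47 had the smallest standard error of the 15 genes with the largest increases; capitals mark the motif. The stretch runs from position -220 to -81 from the gene's start, on the + strand of chr10:33798524-33798663 (RefSeq, GRCr8).
Ifi47 promoter: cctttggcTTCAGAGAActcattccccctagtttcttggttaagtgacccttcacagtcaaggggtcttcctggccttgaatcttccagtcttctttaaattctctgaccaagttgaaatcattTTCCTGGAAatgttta

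**Figure D2:**
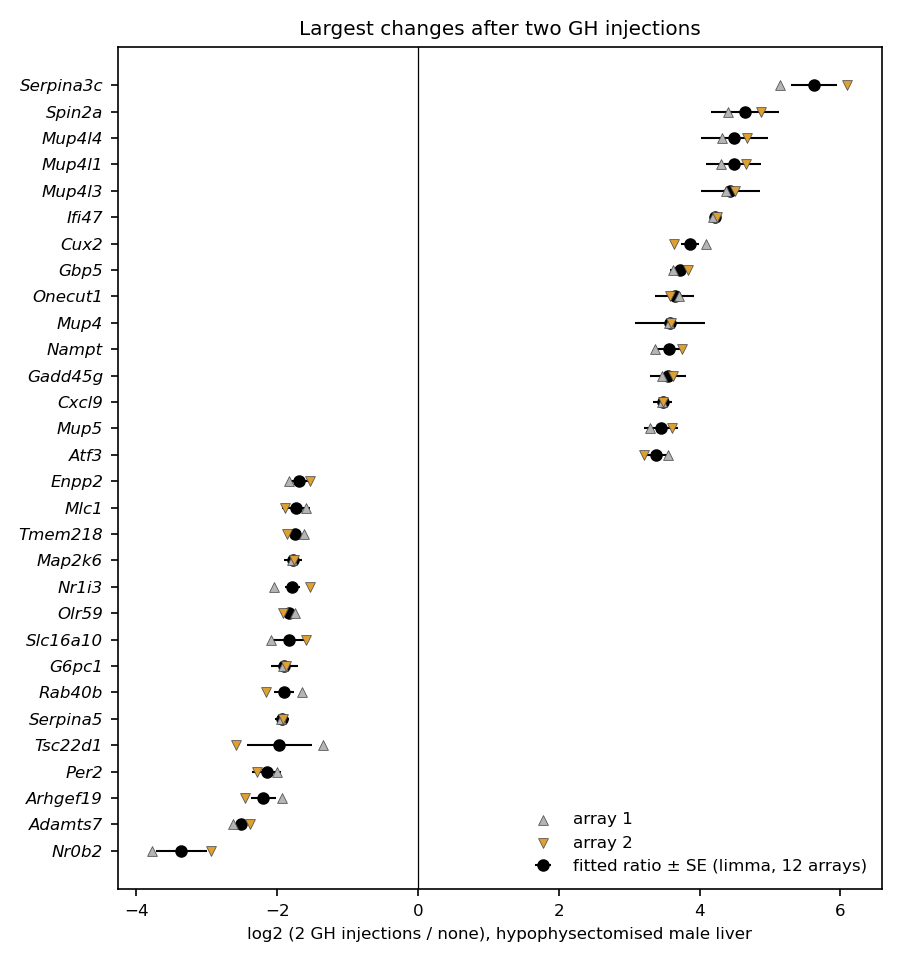
The 15 named genes with the largest increases and the 15 with the largest decreases; triangles show arrays 1 and 2, and black points with bars the fitted log2 ratio ± SE. The fitted ratios run from 5.62 (Serpina3c) to -3.36 (Nr0b2), and Tsc22d1 (-1.36 and -2.58) shows the widest gap between its arrays among the genes that fell.

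The largest decrease was in Nr0b2 (SHP), an orphan nuclear receptor without a DNA-binding domain that represses bile acid synthesis. It had -3.77 and -2.95 on arrays 1 and 2 and a fitted -3.36 ± 0.37, a 10.3-fold reduction (adjusted p = 0.00028). Adamts7, a secreted metalloproteinase, followed at -2.63 and -2.39 with a fitted -2.51 ± 0.07, and Arhgef19, a guanine nucleotide exchange factor for small GTPases, at -1.93 and -2.46 with a fitted -2.19 ± 0.18. For each of these 3 genes both arrays lay well below 0. Per2, a repressor of the circadian clock, fell by 2.15 ± 0.21. G6pc1, the glucose-6-phosphatase catalytic subunit that releases free glucose from the liver, fell by 1.90 ± 0.19 and Slc16a10, an aromatic amino acid transporter that also carries thyroid hormone, by 1.84 ± 0.26. The nuclear receptor Nr1i3 (CAR), which induces drug-metabolising enzymes, fell by 1.79 ± 0.10 and the MAP kinase kinase Map2k6, an activator of p38, by 1.77 ± 0.13. Enpp2 (autotaxin), the secreted enzyme that makes lysophosphatidic acid, fell by 1.68 ± 0.14. The other genes of the 15 were Tsc22d1 (-1.97), Serpina5 (-1.93), Rab40b (-1.90), Olr59 (-1.83), Tmem218 (-1.74) and Mlc1 (-1.74), and Tsc22d1 was not called without array 1 (-2.43) or without array 2 (-1.51).

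Of the GH receptor and its JAK-STAT signalling genes, 8 of 14 rose and 1 fell, with a median of 0.26. The receptor itself, Ghr, had -0.14 and -0.58 on the 2 arrays and its fitted -0.36 ± 0.19 was not called, but both of its less bright probes were called lower, at -0.42 ± 0.07 and -0.38 ± 0.08. Jak2, the receptor's kinase, rose by 0.74 ± 0.10. Among the STATs, Stat3, the mediator of IL-6 type signals, rose by 1.01 ± 0.06. Stat5b, the STAT that GH chiefly activates, rose by 0.30 ± 0.08, and its close relative Stat5a had -0.38 ± 0.14, which was not called. The phosphatase Ptpn2 (TC-PTP), which removes phosphate from JAKs and STATs, had 1.61 and 1.56 and rose by 1.59 ± 0.10. Sirpa, a membrane protein that recruits SHP phosphatases and is phosphorylated after GH, rose by 1.54 ± 0.10, and the phosphatase Ptpn1 (PTP1B) by 0.52 ± 0.08. Of the adaptors, Shc1 rose by 0.23 ± 0.06 and Grb2 fell by 0.55 ± 0.05. The genes Sh2b1 (-0.03), Ptpn6 (-0.01) and Ptpn11 (0.03) were not called. Stat5b (0.18), Ptpn1 (0.39) and Shc1 (0.17) were not called without array 1, nor Shc1 without array 2 (0.28). Less bright probes gave 1.05 for Ptpn1, -0.19 for Grb2, both called, and 0.10 for Shc1, not called. The count of genes that rose was 5 without array 1 and 7 without array 2.

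Of the SOCS family, whose members block JAK activity or the docking of STATs, 4 of 8 rose and 0 fell, nor was any lower at an unadjusted p under 0.05. Socs2, the family member with the strongest known effect on body growth, had 3.27 and 3.29 on arrays 1 and 2 and a fitted 3.28 ± 0.13. Cish (CIS), a classic early target of STAT5, had 0.99 and 0.80 and a fitted 0.89 ± 0.08, and Socs3 rose by 0.35 ± 0.06. With the scanner's processed signals the values were 1.84 for Cish and 1.01 for Socs3, and they were 1.84 and 1.00 in the fit to the authors' deposited table. Socs3 was not called without array 1 (0.29). Socs4 rose by 0.21 ± 0.06, a call that was lost under several alternatives. Socs1 (0.08), Socs5 (0.08), Socs6 (0.19) and Socs7 (0.21) were not called. Both Socs2 and Cish had been lower after hypophysectomy, at -1.98 and -2.08 against intact males, ratios that share the hypophysectomised condition with those given here. The count of SOCS genes that rose was 2 without array 1.

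The Cish promoter holds TTCNNNGAA 4 times, which 2 of the 33469 promoters in the RefSeq table (0.00598%) hold that often, while 2970 (8.87%) hold it at least once in their 300 bases. It is shown because Cish rose and its promoter holds so many copies; capitals mark the motif, which reads the same on both strands at its fixed letters. The stretch runs from position -250 to -101 from the start, on the + strand of chr8:116850719-116850868 (GRCr8).
Cish promoter: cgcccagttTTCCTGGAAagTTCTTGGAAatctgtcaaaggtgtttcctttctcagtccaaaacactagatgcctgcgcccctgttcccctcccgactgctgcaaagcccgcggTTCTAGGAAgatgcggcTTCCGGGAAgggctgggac
Among the genes with the largest changes the motif stood in 3 of the 11 promoters given for those that rose and in 1 of the 13 for those that fell, the latter that of Nr0b2. Of the 16 promoters given for called genes of the GH receptor, SOCS, IGF and repressor lists, 2 hold it. They are those of Cish and of Nr0b2, which fell. A match of letters describes the sequence and does not show that a factor binds there.

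Of the genes of the insulin-like growth factor (IGF) axis 3 of 14 rose and 0 were called lower by limma (1 at an unadjusted p under 0.05), with a median of 0.01. Igf1, the hormone that carries much of the growth effect of GH, had 2.40 and 3.03 on arrays 1 and 2 and a fitted 2.71 ± 0.44 (adjusted p = 0.0022). Igfals, the acid-labile subunit that holds IGF in a long-lived ternary complex in blood, had 2.36 and 1.90 with a fitted 2.13 ± 0.24, and the binding protein Igfbp4 rose by 0.72 ± 0.09. Without array 1 the value for Igf1 was 2.38 and was not called (adjusted p = 0.065), and a dimmer probe for it gave 1.11 ± 0.11, which was called. Igf1 and Igfals had been at -3.48 and -2.41 in hypophysectomised against intact males, ratios that share the hypophysectomised condition with those given here. Igfbp3, which forms the same ternary complex, had 0.47 and 0.01 and its fitted 0.24 ± 0.14 was not called. Igfbp1, a short-lived binding protein repressed by insulin, had -0.58 ± 0.20, and Igfbp2 had -0.29 ± 0.27, neither called. The receptors Igf1r (-0.03), Igf2r (-0.07) and Insr (-0.08) and the docking proteins Irs1 (0.01) and Irs2 (0.27) were not called either, nor were Igf2 (0.16), Igfbp5 (0.01) and Igfbp6 (-0.23).

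Of the repressors and regulators that GH is known to control in liver 3 of 6 rose and 2 fell. Cux2, Onecut1 and Nr0b2 are given above. Bcl6, a zinc finger repressor that binds many of the same sites as STAT5, had -1.51 and -1.31 and fell by 1.41 ± 0.24, and was not called without array 1 (-1.30). Nfil3, a bZIP repressor, rose by 0.30 ± 0.08 and was not called without array 1 (0.18) or without the dye term. Tox had 0.04 ± 0.06 and was not called.

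**Figure D3:**
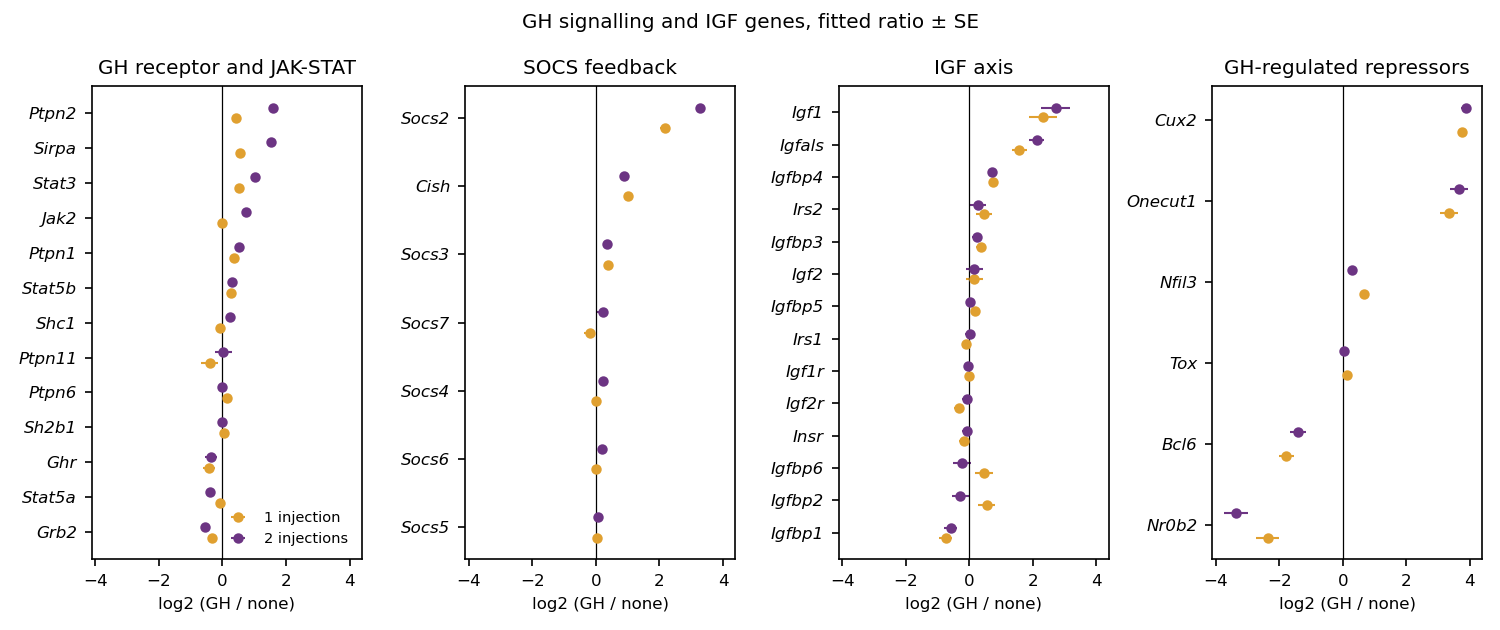
Fitted log2 ratio ± SE of the GH receptor and JAK-STAT, SOCS, IGF-axis and repressor genes after 1 GH injection (orange) and 2 injections (purple), each over untreated hypophysectomised males. Socs2 lies at 3.28 after 2 injections and 2.16 after 1, while Cish lies at 0.89 and 1.01.

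Interferon-responsive genes rose together after 2 GH injections: 16 of 20 were called higher and 0 lower (18 and 0 at an unadjusted p under 0.05), with a median of 1.44, beside 18.2% called higher among all named genes. Rsad2 (viperin), an antiviral enzyme, had 3.01 and 2.92 on arrays 1 and 2 and a fitted 2.97 ± 0.06, and a dimmer probe for it gave 1.22 ± 0.11, also called. Cxcl10, a T cell chemokine, had 3.25 and 3.21 and a fitted 3.23 ± 0.10. Isg15, a ubiquitin-like protein, had 2.78 and 3.03 and a fitted 2.90 ± 0.07. In these 3 genes and in Gbp5 the 2 arrays gave nearly the same value. Gbp2, a guanylate-binding GTPase, rose by 2.86 ± 0.07, the antiviral GTPase Mx2 by 2.21 ± 0.08, and Usp18, which removes Isg15 from proteins and dampens interferon signalling, by 2.04 ± 0.09. Ifit3, an RNA-response protein, rose by 2.04 ± 0.07, and the transcription factors Irf7 and Irf9 by 1.65 ± 0.07 and 0.56 ± 0.06. The antigen-processing genes Tap1 and Psmb9 rose by 1.23 ± 0.14 and 1.06 ± 0.18. The 4 genes not called were Psmb8 (0.51), Mx1 (0.16), B2m (0.00) and Ifi27 (-0.04). The count was 15 without array 1, 16 without array 2, 16 without the term for dye and 5 with median centring.

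The same genes stood much lower after 1 injection. There 7 of 20 were called higher, beside 8.98% of all named genes, with a median of 0.21, and the difference between 2 and 1 injections was called for 13 of 20, all higher after 2 (7.17% of all named genes were called in that direction). Cxcl10 had 0.02 and 0.11 on the 2 arrays of 1 injection, and Isg15 had -0.01 and 0.33, well below their values after 2. Both were picked for the size of their difference between 2 and 1 injections. The separation of their arrays is therefore no separate evidence. Cxcl9, picked in the same way but not on the interferon list, had -0.18 and -0.04 after 1 injection against 3.47 and 3.48 after 2. Irgm, an immunity-related GTPase, was higher after both, at 1.14 and 1.87, and its difference was not called. Markers of immune cells, which can also express such genes, were counted beside them: of 12 lymphocyte markers tested 2 rose, Gzmb (0.41) and Cd8a (0.40), the others ranging from -0.13 to 0.16, and of 10 macrophage markers 0 were called (1 at an unadjusted p under 0.05). Their part in the result was not tested.

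Several promoters of these genes hold the core of the interferon-stimulated response element, searched on either strand as GAAA, any 2 bases and GAAA again, a search chosen after the values were seen. It stood in 1312 of the 33469 promoters (3.92%), and in 12 of the 16 promoters given for interferon-responsive genes, 9 of them among the 12 that were called higher. The promoters of Ifi27, B2m and Psmb8, 3 of the 4 given for genes that were not called, hold it as well, so that the core was as frequent there as among the genes called higher. The stretches below are shown because they are 5 examples among the genes that rose whose promoter holds the core; capitals mark the core, which reads TTTC, 2 bases and TTTC where it lies on the other strand. They come from RefSeq, GRCr8, each in the direction of its gene: Rsad2 from chr6:48788218-48788307 (- strand), Cxcl10 from chr14:15988816-15988872 (+), Gbp5 from chr2:233910903-233910992 (+), Ifit3 from chr1:241527242-241527325 (+) and Irf7 from chr1:205800043-205800132 (- strand). All lie before the annotated start.
Rsad2 promoter: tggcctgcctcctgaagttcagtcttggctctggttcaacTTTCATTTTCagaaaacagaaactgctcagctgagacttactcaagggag
Cxcl10 promoter: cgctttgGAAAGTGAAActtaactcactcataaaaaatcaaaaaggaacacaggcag
Gbp5 promoter: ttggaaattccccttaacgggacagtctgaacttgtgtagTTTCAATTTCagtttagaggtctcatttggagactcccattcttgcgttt
Ifit3 promoter: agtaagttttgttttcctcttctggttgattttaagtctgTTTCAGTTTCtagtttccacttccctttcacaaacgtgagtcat
Irf7 promoter: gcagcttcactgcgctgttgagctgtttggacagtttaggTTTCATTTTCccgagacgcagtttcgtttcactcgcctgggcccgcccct

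Immediate early genes, whose transcription needs no new protein synthesis, rose in 21 of 34 cases and fell in 0 (24 and 0 at an unadjusted p under 0.05), with a median of 0.69. Besides Gadd45g and Atf3, Gadd45a had 2.98 and 2.44 and rose by 2.71 ± 0.37, and the AP-1 subunit Jun had 3.04 and 2.13 and rose by 2.59 ± 0.33. Klf6, a zinc finger factor, rose by 2.39 ± 0.18, the antiproliferative gene Btg2 by 2.00 ± 0.22 and Rhob, a short-lived small GTPase, by 1.54 ± 0.25. After 1 injection these last 3 stood at 0.10, 0.08 and -0.04, and each difference was called. Myc went the other way, at 1.99 ± 0.07 after 2 injections against 3.01 after 1, a difference that was called. Egr1, a zinc finger factor of growth signalling, had 1.94 and 0.82 and rose by 1.38 ± 0.37, and Fos had 0.48 and 0.06 and was not called at 0.27 ± 0.10. Klf10 (2.78 and -0.01) and Nr4a1 (1.74 and -0.48) had arrays too far apart for a call. The count was 13 without array 1 and 18 without array 2. The median was 0.92 on array 1 and 0.48 on array 2. With median centring 1 immediate early gene was called higher, as was 1 of the acute phase genes described next.

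Acute phase genes, the plasma proteins and receptors of the liver's response to inflammation, rose in 16 of 21 cases and fell in 1, with a median of 0.98. Saa4, a serum amyloid protein, had 2.03 and 2.74 and rose by 2.38 ± 0.24. A2m, the protease inhibitor alpha-2-macroglobulin that is a marked acute phase protein in rats, had 2.34 on both arrays and rose by 2.34 ± 0.22. Osmr, the oncostatin M receptor, had 2.16 and 1.88 and rose by 2.02 ± 0.09, or by 3.21 with the processed signals. A2m and Osmr were alike on the 2 arrays, but the very abundant members were not. Saa4, whose probe was nearly as bright as that of Fga, stood higher on array 2. The fibrinogen chains Fga (0.89 and 2.72; fitted 1.80 ± 0.09) and Fgb (0.46 and 2.49; fitted 1.48 ± 0.11), Hp (haptoglobin, -0.51 and 1.59; fitted 0.54 ± 0.07) and C3 (complement, -0.37 and 1.36; fitted 0.50 ± 0.07) stood higher on array 2, and Hp and C3 changed sign between arrays. For these genes the fitted value lies between the arrays and the same value was fitted without the term for dye orientation, but the p-value changed with that term: Fga was not called without it (adjusted p = 0.11). Fgg, the third fibrinogen chain, had a value on array 1 alone (0.73), and its fitted 1.73 ± 0.16 uses the dye term in place of array 2. The count for the group was 9 without the dye term, 10 without array 1 and 11 without array 2. The IL-6 receptor Il6r had -0.56 and -0.52 and fell by 0.54 ± 0.10.

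**Figure D4:**
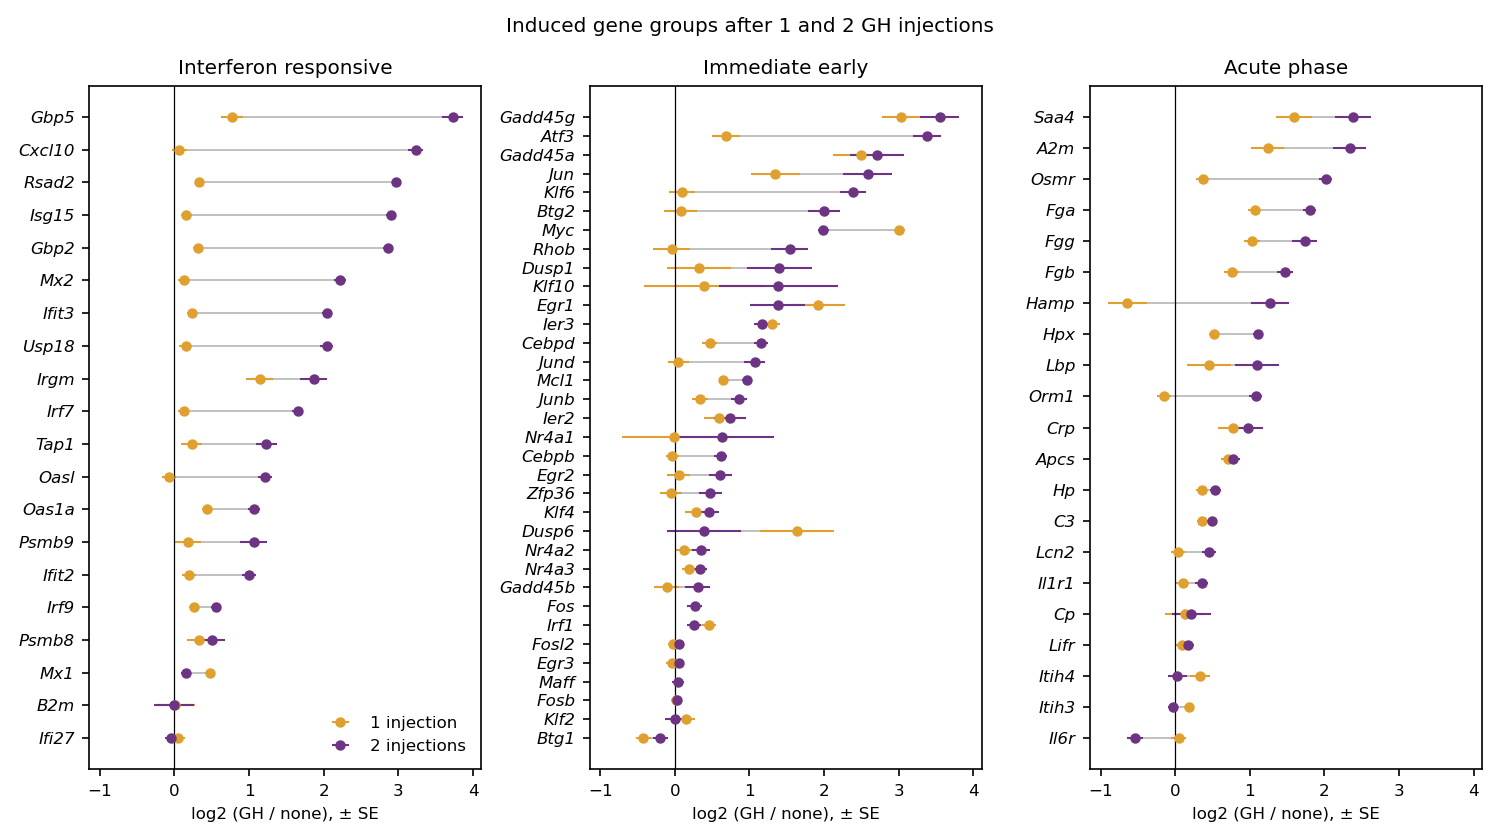
Fitted log2 ratio ± SE of interferon-responsive, immediate early and acute phase genes after 1 GH injection (orange) and 2 injections (purple), with grey lines joining the same gene. Cxcl10 goes from 0.07 to 3.23 and Atf3 from 0.69 to 3.38, whereas Myc goes from 3.01 to 1.99.

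Genes of the ATF4 amino acid response and of the unfolded protein response rose in 12 of 20 cases and fell in 2, with a median of 0.65. Trib3, a pseudokinase target of ATF4, had 2.17 and 2.48 and rose by 2.32 ± 0.26. Dnajb9, a chaperone of the endoplasmic reticulum, had 1.92 and 1.90 and rose by 1.91 ± 0.10, Asns (asparagine synthetase) by 1.62 ± 0.09 and Hspa5 (BiP), the chief chaperone of that compartment, by 1.52 ± 0.17. Atf4 itself rose by 1.24 ± 0.05. The 2 that fell were Cth, the enzyme of cysteine synthesis (-1.13 ± 0.16), and Ddit3 (CHOP, -0.41 ± 0.07), the factor linked to cell death under prolonged stress. The count was 10 without either array.

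Genes that are higher in male rat liver moved in both directions. Of 19 on a list drawn from general knowledge, with earlier results of these data known, 5 rose and 11 fell, with a median of -0.60. The increases were in the urinary proteins Mup4 and Mup5, in the odorant-binding protein Obp3 (3.22 and 3.07; fitted 3.15 ± 0.61), in the cadherin Cdh17 and in Hao2 (0.35 ± 0.09), a peroxisomal oxidase. Obp3 was not called without array 1 (2.67). The decreases were in steroid- and drug-metabolising enzymes: Dhrs7l1, a dehydrogenase/reductase, had -1.21 and -1.63 (fitted -1.42 ± 0.30), the oestrogen sulfotransferase Sult1e1 had -1.10 and -1.64 (-1.37 ± 0.32) and the retinol dehydrogenase Rdh16 had -1.32 and -1.39 (-1.35 ± 0.11). Cyp2c11, the main male-specific P450 of rat liver, had -1.39 and -1.99, and its fitted -1.69 ± 0.57 was not called. The count of decreases was 8 without array 1 and 5 without array 2 or without the dye term. Cyp3a2 (-1.77 and 0.19), Cyp2c13 (-1.80 and -0.09) and Cyp3a18 (-1.73 and -0.40) were far lower on array 1 than on array 2.

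Of genes that are higher in female rat liver 8 of 18 rose and 3 fell, with a median of 0.46. Sult2a1, a hydroxysteroid sulfotransferase, had 3.14 and 3.12 and rose by 3.13 ± 0.36. Cyp2c12, the classic female-specific steroid hydroxylase, had 2.60 and 2.80 and rose by 2.70 ± 0.40, and Akr1b7, an aldo-keto reductase, rose by 2.69 ± 0.40. Cux2 and Ifi47 belong to the same list. Adh7, an alcohol dehydrogenase, fell by 1.26 ± 0.16, the steroid 17-hydroxylase Cyp17a1 by 0.85 ± 0.18 and the flavin monooxygenase Fmo1 by 0.71 ± 0.09. Sex-biased genes were also taken from the arrays of intact males against intact females, which share no RNA with this comparison. The calls of both comparisons came from the same fit, with a shared spread and dye term for each probe, so they are not independent. Of 970 genes called higher in males there, 188 (19.4%) rose after 2 GH injections and 362 (37.3%) fell. Of 934 genes called higher in females 254 (27.2%) rose and 215 (23.0%) fell. Over all 11010 genes tested in both comparisons 19.6% rose and 20.2% fell. Among the 9106 of them not called between the sexes 18.9% rose and 18.1% fell.

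Genes of metabolism were lower more often than higher in several groups. Of 19 amino acid catabolism genes 10 fell and 1 rose, with a median of -0.43: the urea cycle enzyme Arg1 had -1.29 and -1.12 and fell by 1.21 ± 0.28, Nags, which makes the activator of the urea cycle, fell by 1.17 ± 0.08 and Tat (tyrosine aminotransferase) by 0.94 ± 0.10. Arg1 was not called without array 2 (-0.70) or without the dye term. The amino acid transporter Slc38a2 rose by 1.08 ± 0.10. The count was 8 without array 1, 5 without array 2 and 6 without the dye term. Of 17 bile acid genes 8 fell and 2 rose. Cyp7a1, the rate-limiting enzyme of bile acid synthesis, had -0.82 and -1.53 and fell by 1.18 ± 0.21, and the uptake carrier Slc10a1 (NTCP) fell by 0.70 ± 0.10 with -1.33 and -0.07 on the 2 arrays, a call lost without the dye term. The export pump Abcc2 (MRP2) had 1.56 and 1.68 and rose by 1.62 ± 0.07. The bile acid count was 4 without array 1 and 3 without array 2, and Cyp7a1 was not called without array 2 (-0.93).

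Of 15 drug-metabolising enzymes 9 fell and 0 rose (11 and 0 at an unadjusted p under 0.05), with a median of -0.64. Cyp2b2, a target of the receptor CAR, had -1.40 and -1.52 and fell by 1.46 ± 0.18, with -0.64 at a dimmer probe that was also called. Cyp1a1, the target of the aryl hydrocarbon receptor, fell by 1.38 ± 0.25 and Cyp3a23-3a1, a target of the receptor PXR, by 1.14 ± 0.17. Cyp1a1 was not called without array 1 (-0.92), and neither gene was called without the dye term. Cyp2e1, which oxidises ethanol, had -1.79 and 0.04, and its fitted -0.87 ± 0.09 was not called without the dye term. The count was 6 without either array. Among liver transcription factors 9 of 19 fell and 1 rose: after Nr1i3 came Nr1i2 (PXR, -0.90 ± 0.05), Thrb (thyroid hormone receptor beta, -0.86 ± 0.25) and Nr5a2 (LRH-1, -0.68 ± 0.10). Thrb was not called without array 1 (-0.48) or without array 2 (-1.25), and a second probe for it gave -0.04 and was not called. The glucocorticoid receptor Nr3c1 rose by 0.27 ± 0.07, and Hnf4a, a central hepatocyte factor, had -0.29 ± 0.16 and was not called. The count was 5 without array 1 and 3 without array 2.

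Lipid and sugar genes were mixed. Of 20 fatty acid synthesis genes 1 rose and 4 fell, among them the regulator Srebf1 (-0.64 and -1.57; fitted -1.10 ± 0.18) and Gpam, the first enzyme of triglyceride synthesis (-0.95 ± 0.09). Srebf1 was not called without array 2 (-0.80). Its next brightest probe was also called lower, while its dimmest probe gave -0.01 and was not called. Fasn (0.55 and -2.78), Scd (3.32 and -2.49) and Elovl6 (1.56 and -1.23) took opposite signs on the 2 arrays and were not called. Of 21 fatty acid oxidation genes 4 rose and 4 fell. Fgf21, a fasting hormone of the liver, had 3.14 and 2.44 and rose by 2.79 ± 0.49, and the carnitine palmitoyltransferases Cpt2 and Cpt1a rose by 1.27 ± 0.13 and 1.08 ± 0.21. Fgf21 was not called without array 1 (2.67), nor Cpt1a without array 2 (0.78). Of 25 cholesterol synthesis genes 3 rose and 8 fell. Among the latter, Pmvk, a mevalonate pathway kinase, fell by 0.71 ± 0.10. The count of decreases was 3 without array 1 and 1 without array 2. Of 16 glucose and glycogen genes 1 rose and 5 fell, G6pc1 most, followed by the glycogen-targeting phosphatase subunit Ppp1r3c (-1.56 ± 0.33) and the glucose-6-phosphate transporter Slc37a4 (-0.98 ± 0.09). The count of decreases was 3 without array 1 and 2 without array 2, and Ppp1r3c was not called without array 1 (-1.76) or without array 2 (-1.37).

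The remaining groups moved in both directions or little. Of 14 clock genes Per2 and Cry2 (-0.34 ± 0.07) fell and 0 rose (4 and 1 at an unadjusted p under 0.05). Cry2 was -1.22 with the processed signals and was not called without array 1 (-0.21). Of 28 cell cycle genes 5 rose, led by the cyclin-dependent kinase inhibitor Cdkn1a (p21, 1.90 and 1.48; fitted 1.69 ± 0.32), and 4 fell, led by the mitotic kinase Bub1 (-0.88 ± 0.12). Of 15 genes of BMP, activin and Id signalling 3 rose and 2 fell. Id3, an inhibitor of bHLH factors, rose by 1.48 ± 0.08, while the activin antagonist Fst (-2.48 and -0.79; fitted -1.63 ± 0.45) and the decoy receptor Bambi (-1.35 ± 0.10) fell. Of 12 glucocorticoid-responsive genes 3 rose, among them Errfi1 (1.75 ± 0.51), a feedback inhibitor of the EGF receptor, and 2 fell. Of 8 thyroid hormone genes 2 rose and 2 fell. Fst, Errfi1 and Cdkn1a were not called without array 1 (-0.96, 1.34 and 1.31), nor was Errfi1 without array 2 (2.16). The count of cell cycle genes that rose by limma was 0 without array 1 (2 at an unadjusted p under 0.05) and 2 without array 2, and a dimmer probe for Cdkn1a gave 0.81, which was called.

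Markers of cell types were used to check the tissue. All 12 hepatocyte markers were above background in both RNAs on both arrays. Of these 3 rose, Hpx (1.10), Serpina1 (0.74) and Apob (0.35), and Rbp4 fell (-0.52), with medians of -0.59 on array 1 and 0.30 on array 2. Without the dye term these 4 calls were lost, as were 3 of them, all but Hpx, without array 1. Few markers of other cells that liver samples can hold were called: 0 of 10 macrophage markers and 0 of 7 bile duct markers were called by limma (1 in each group at an unadjusted p under 0.05), 1 of 9 stellate cell markers fell (Lrat, -0.53), and among 9 endothelial markers Lyve1 rose (0.19) and Tek fell (-0.22), neither of them called without array 1 or without array 2. Of 4 neutrophil markers S100a8 (1.59 and 1.22; fitted 1.41 ± 0.13) and S100a9 (1.33 and 1.31; fitted 1.32 ± 0.17) rose, while Csf3r (0.09) and Cxcr2 (0.12) were not called. Of 4 erythroid markers Hbb (1.54 ± 0.24) and Alas2 (0.47 ± 0.08) rose and Slc4a1 (-0.64 ± 0.10) fell, and without array 1 these 3 calls were lost, as were those of Gzmb and Cd8a. Of the pancreas and fat markers 3 of 8 could be tested and 0 were called, also at an unadjusted p. In pooled tissue fewer cells of a type and less RNA per cell cannot be told apart.

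**Figure D5:**
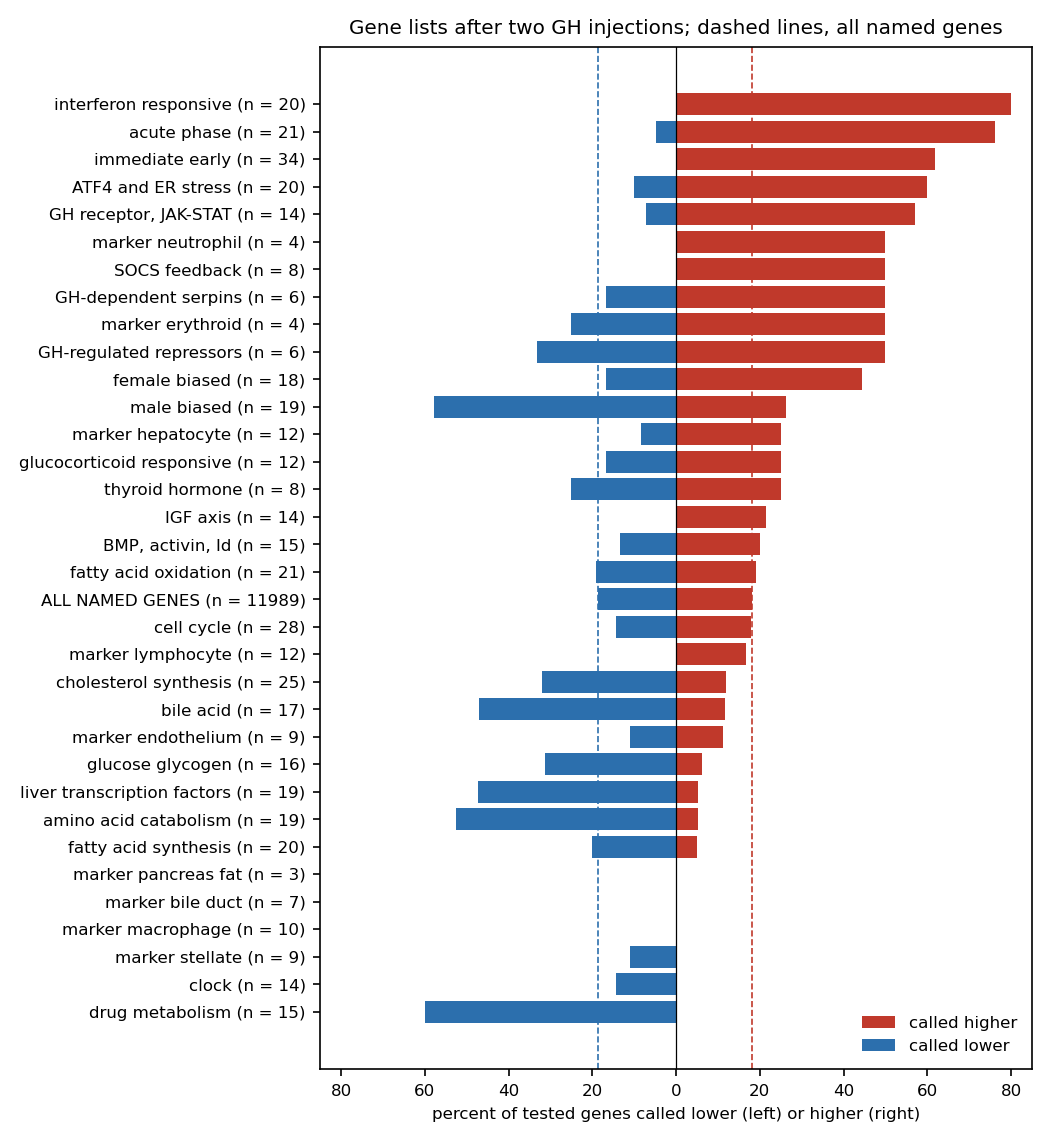
Percent of the tested genes of each list called lower (blue, to the left) or higher (red, to the right) after 2 GH injections, with the number tested in brackets and dashed lines at the shares over all named genes, 18.6% and 18.2%. Interferon-responsive (16 of 20), acute phase (16 of 21) and immediate early genes (21 of 34) lie farthest to the right, and drug metabolism (9 of 15) and male-biased genes (11 of 19) farthest to the left.

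Whether 2 injections differed from 1 was tested as the difference between the 2 comparisons, which are both read against hypophysectomised male RNA. Of 26208 probes tested in both, 2721 differed (10.4%), 1458 higher after 2 injections and 1263 lower. Without array 1 of the 2-injection arrays the count was 592, without array 2 it was 995, without the dye term 1228, and with median centring 0 (461 at an unadjusted p under 0.05). The treatments also differed in the age of the last pulse and in the pool of rats, which cannot be told apart from the number of injections. The largest difference was in Cdh17, a cadherin of intestine and male rat liver, with 2.38 and 2.30 after 2 injections against -3.09 and -3.06 after 1, a difference of 5.41 ± 0.20 (adjusted p = 2.3e-05). Stac3, an adaptor protein of muscle excitation, had 1.74 and 1.69 against -1.68 and -1.58, and Gstm3, a glutathione transferase, had 1.66 and 1.73 against -1.44 and -1.23. All 3 thus lay above the untreated hypophysectomised level after 2 injections and below it after 1. They are also higher in intact males than in females, by 6.98, 3.64 and 2.25 on the log2 scale.

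Besides those 3 and Gbp5, Cxcl9, Cxcl10 and Isg15, the gene Atf3 was higher after 2 injections by 2.69 ± 0.27. In the other direction Myl11, a myosin light chain of muscle, had -0.05 and -0.09 after 2 injections against 1.59 and 1.70 after 1, and Dipk2a had -0.35 and -0.32 against 1.14 and 1.27. Cldn1, a tight junction protein, had -1.45 and -1.88 against 0.07 and -0.41, and Smpd3, a neutral sphingomyelinase, had -0.98 and -1.93 against 0.48 and -0.62. Rab40b, Arhgef19 and Adamts7, given above, stood at -0.45, -0.82 and -1.12 after 1 injection. Of the signalling genes Socs2, Jak2, Stat3, Ptpn2 and Sirpa were higher after 2 injections than after 1. None of the 14 IGF-axis genes or the 6 repressors differed between 2 and 1 injections at an adjusted p under 0.05 (limma), and at an unadjusted p under 0.05 the counts were 0 and 1. Of 10 macrophage markers 8 had been higher after 1 injection, and the difference was called lower for 6 of them, beside 5.61% of all named genes; their part in the other differences was not tested.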

How the data were processed

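Liver RNA was measured on 12 2-colour Agilent rat arrays, 2 dye-swapped arrays for each of 6 comparisons. Per the file headers the deposited scanner files came from Feature Extraction 9.1.3.1 and hold spot intensity in each dye, and a log10 ratio of red over green processed signal that was not used. The authors' deposited value table holds log2 ratios of the processed signals, channel 2 over channel 1. Its column medians ran from -0.13 to 0.15, and it was used as an alternative. Direction was taken from the dyes in the labels.

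Mean signals were background-corrected (normexp, offset 50, with 1639 control spots of 45018 left in for that step and out of the tests), normalised within each array by loess, and averaged over the spots of a probe. Spots flagged as outliers were left out. limma 3.58.1 (R 4.3.3) was fitted to all 12 arrays with 6 comparison coefficients and 1 for dye orientation (5 residual degrees of freedom), with p-values adjusted by Benjamini-Hochberg over the probes tested. A probe was tested where at least 1 RNA was well above background on both arrays. Of 41012 probes 10735 matched RefSeq's GRCr8 table by accession, 5577 by symbol and 3730 by synonym. The 19993 of them whose symbol is not a predicted name count as named, and a gene is its brightest probe. Of 904 genes with 2 or more called probes 8 had probes called in opposite directions. The number of arrays limits the precision.

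Named genes were the 15 largest called changes each way with 1 sign on both arrays, the 8 largest each way for the difference from 1 injection, up to 4 called members of each list, and all members of the GH receptor, SOCS, IGF and repressor lists. Other list members named were chosen after their values were seen. Some list members are counted but not reported here by name, nor drawn. The members and lists were chosen with earlier results of these data known. The fit was tested on simulated data with independent noise on each array. That test did not cover deviations shared between arrays or the use of the same treated pool on both. On 1 array with RNA of rats given 1 injection, the treatment field lacks GH, so the title set its group. Alternatives were the offset, the processed signals, median centring, the value table, the filter on dim probes, the 4 GH arrays alone, no dye term, a replicate block, a second probe and leaving out each array. A separate dye term for the slide of the GH arrays was added after seeing the data.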

Additional observations from a re-analysis of the deposited data

Results flagged for a closer look

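For 16 genes the response to 2 GH injections differed from the response to 1 by the test of the difference itself (limma, adjusted p under 0.05), and these are the 8 largest differences in each direction among named genes with the same sign on both arrays. Higher after 2 injections, on the log2 scale, were Cdh17 by 5.414, Cxcl9 by 3.584, Stac3 by 3.344, Cxcl10 by 3.165, Gstm3 by 3.031, Gbp5 by 2.957, Isg15 by 2.742 and Atf3 by 2.69. Cdh17, Stac3 and Gstm3 stood below the untreated level after 1 injection and above it after 2, on both arrays of each. Lower after 2 injections were Myl11 (-1.711), Dipk2a (-1.537), Cldn1 (-1.491), Rab40b (-1.455), Adamts7 (-1.384), Adh7 (-1.383), Smpd3 (-1.381) and Arhgef19 (-1.375). Myl11 and Dipk2a were called higher after 1 injection and were not called after 2. Each of the 16 was lost with median centring, and Smpd3 was lost under 9 of 12 alternatives. The time from the last injection to death and the pool of livers changed together with the number of injections.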

How the results depend on the processing

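The count of probes called after 2 injections stayed within 1.5 times under the other offset, the processed signals, the value table, both filters on dim probes, no dye term and both added dye or block terms. With median centring it was 75 (42 higher and 33 lower), and the median of all probes moved to -0.11. With the 4 GH arrays alone it was 14863 (6959 and 7904), on 1 residual degree of freedom. Without 1 array it was 4183 to 4870, with 1911 to 2981 higher and 1889 to 2272 lower, the lone array being assumed to vary like the others. For the difference from 1 injection the count was 0 with median centring (0 higher and 0 lower), 10689 with the 4 GH arrays (5005 and 5684), 1228 without the dye term (735 and 493), and 592 to 995 without 1 array (341 to 745 higher and 250 to 251 lower). With an offset of 10 the lower calls were 830. Of 129 called named genes 111 were lost with median centring and 4 reversed: Apob -0.25, Nfil3 -0.057, Shc1 -0.014 and Lyve1 -0.25. Without array 1, 34 were lost, without array 2, 22, and without the dye term 18. A less bright probe, given for 38 of them, was not called for 11. The causes were not tested.

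The same-numbered arrays of 1 and 2 injections had deviations correlated at r = 0.690 over 28954 probes. In these 4 arrays the replicate number is also the dye orientation, and only 2 numbers exist. All 4 also share the scan identifier taken as their slide, so the sources of the shared deviation cannot be told apart. With a replicate block 8224 probes were called after 2 injections (4049 higher and 4175 lower) and 2231 in the difference. Precision is limited by 2 arrays of 1 treated pool.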
